A study of Mus musculus with 32 samples.

Results

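Of the 32 RNA sequencing libraries of the series, the 8 compared here come from mouse CD4+ T cells stimulated without an inhibitor: 4 labelled as deficient for Nur77 (KO-labelled) and 4 wild type (WT). They were chosen by their titles, and every gene in the count files entered the comparison. All cells were from C57BL/6J animals and were isolated from spleen with inguinal and axillary lymph nodes. Both groups received antibodies to CD3 and CD28 for 12 h. The other 24 libraries hold both genotypes unstimulated, or stimulated in the presence of XCT790 (known as an inverse agonist of ERR alpha) or with CompA, a code name not explained in the labels, with 4 libraries per group. Both compounds were given at 10 µg/ml. The sources used here give neither the making of the allele nor the vehicle, and they do not say whether each library had its own animal. The p-values therefore measure only how far these samples spread, and that spread may be technical. All KO libraries carry higher numbers (25 to 40) than the WT libraries (1 to 16), and an effect of that numbering and one of genotype cannot be told apart.

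Antibodies to CD3 engage the T cell receptor complex and antibodies to CD28 supply costimulation. Together they drive a resting CD4+ T cell to make cytokines, to build ribosomes and metabolic enzymes, and to prepare for division, while transcripts of the resting state such as Il7r and S1pr1 decline. Nur77, encoded by Nr4a1, is a nuclear receptor whose gene is switched on within hours of T cell receptor signalling. It binds DNA at a response element named NBRE, and with its relatives Nr4a2 and Nr4a3 it is known as a brake on T cell responses.

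The targeted gene was read first. Nr4a1 stood at 350, 506, 229 and 244 CPM (counts scaled to library size, by TMM) in KO-labelled stimulated replicates 1 to 4, and at 130, 153, 175 and 207 CPM in WT stimulated replicates 1 to 4. Every KO-labelled library was above every WT library, so the transcript was not reduced in the group labelled KO. It averaged 332 ± 128 CPM in KO-labelled cells and 166 ± 32.7 CPM in WT cells (SD, n = 4 each), a 1.99-fold difference (log2 difference 1 ± 0.23, SE, edgeR adjusted p = 0.0015). With transcripts kept from unstimulated cells subtracted, in the pair of ways described further on, the Nr4a1 difference was 0.69 (adjusted p = 0.084) and 0.7 (adjusted p = 0.056), neither past the threshold. It did not pass with XCT790 (0.67, adjusted p = 0.059), with CompA (0.63, adjusted p = 0.09) or in unstimulated cells (0.39, adjusted p = 0.17). Counts per gene are blind to a deletion or a frameshift within the transcript, so the label could not be checked at the protein level, and the group is called KO-labelled throughout. The relatives did not pass the test in stimulated cells. Nr4a2 averaged 13.2 ± 3.57 CPM in KO-labelled cells and 12.7 ± 5.2 CPM in WT cells (adjusted p = 0.89), and Nr4a3 66.2 ± 12 CPM in KO-labelled cells and 61 ± 17 CPM in WT cells (adjusted p = 0.64). Neither relative passed with XCT790 or CompA. In unstimulated cells both were higher in KO-labelled cells, Nr4a2 by 2.08 (edgeR adjusted p = 4.8e-05) and Nr4a3 by 1.11 (adjusted p = 1e-04) on the log2 scale.

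The libraries held 17050510 to 23687940 gene counts in the KO-labelled group and 17961771 to 20826371 in the WT group. Markers of CD4+ T cells summed to 5280 to 6260 CPM in KO-labelled libraries and to 5320 to 6140 CPM in WT libraries. All 8 libraries carried the Y-linked transcript Ddx3y, at 65.7 to 89.2 CPM in KO-labelled cells and 80.1 to 98.4 CPM in WT cells, and none had a count for Xist, so genotype did not run with sex. KO-labelled replicate 2 stood apart from its group by a B cell marker sum of 1590 CPM, against 387 to 518 CPM in the other KO-labelled libraries.

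The WT libraries kept transcripts that stimulated cells elsewhere had lost. For 75 transcripts present in unstimulated cells of both genotypes and nearly absent from all inhibitor-treated groups, the median level relative to unstimulated cells of the same genotype, called the retained share here, was 0.00732, 0.00498, 0.00322 and 0.0051 in KO-labelled replicates 1 to 4. In WT replicates 1 to 4 the same share was 0.158, 0.456, 0.224 and 0.216. The groups did not overlap, and WT replicate 2 held the largest share. The inhibitor-treated libraries of both genotypes lay between 0.000788 and 0.0103, which the choice of transcripts fixed to be low.

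Macrophage transcripts were among those kept. Of 34 tested myeloid and dendritic cell markers, 0 rose and 31 fell in KO-labelled cells, against 7.31% and 17.9% of all 12332 genes tested. Lost genes, defined further on, include 33 of the 34, and 62.9% of all lost genes fell. The markers had a median log2 difference of -4.13, while the median over all genes tested was 0. Their summed level was 169 to 248 CPM in KO-labelled libraries and 1120 to 2980 CPM in WT libraries. C1qa, a subunit of complement C1q made by macrophages, stood at 1.61, 1.11, 0.55 and 1.18 CPM in KO-labelled replicates and at 79.3, 157, 93 and 80.3 CPM in WT replicates. Cd163, the scavenger receptor for haemoglobin, had 1 count over the 4 KO-labelled libraries and 1547 counts over the 4 WT libraries. The macrophage receptor gene Emr4 had 5 counts over the KO-labelled libraries and 3847 over the WT libraries. Slco2b1, an organic anion transporter gene, had 2 counts over the KO-labelled libraries and 1049 over the WT libraries. In bulk samples, fewer cells of a type and less RNA per cell cannot be told apart.

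**Figure D1:**
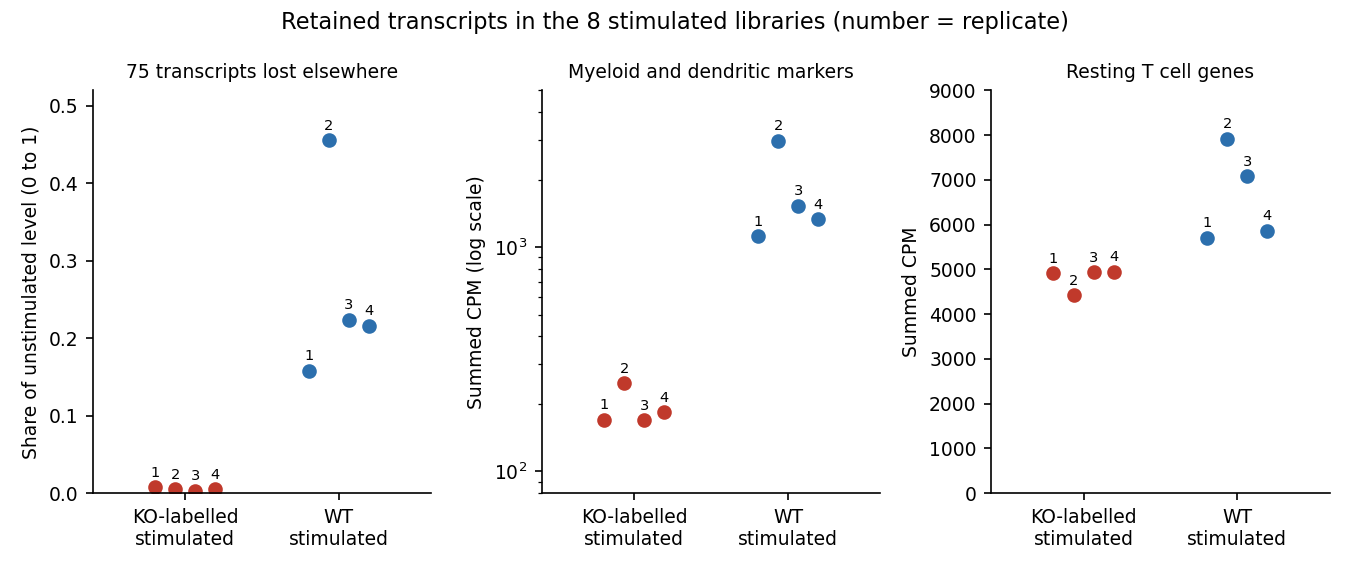
Retained transcripts in each of the 8 stimulated libraries, KO-labelled left and WT right, numbered by replicate. The left panel gives the median level of 75 transcripts as a share of the unstimulated level, the middle panel the summed CPM of myeloid and dendritic markers on a log scale, and the right panel the summed CPM of resting T cell genes. WT replicate 2 lies highest in each panel, and no KO-labelled point reaches the WT points.

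Across all genes, 902 of 12332 tested (7.31%) were higher and 2209 (17.9%) lower in KO-labelled stimulated cells at an edgeR adjusted p under 0.05. With the size factors of DESeq2 in place of TMM the split was 1435 higher and 2043 lower. To see which of these hold for genes of the activation programme, genes were sorted by their response in libraries outside the comparison. A gene counted as induced, or as lost, when it passed the test and moved at least 2-fold upwards, or downwards, in all 4 contrasts of inhibitor-treated stimulated cells with unstimulated cells, in both genotypes. This gave 1846 induced genes, 2541 lost genes and 7945 genes in neither class.

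Induced genes were shifted upwards in KO-labelled cells as a class. In all, 416 of the 1846 rose (22.5%) and 3 fell, the median log2 difference was 0.25, and 95.4% of the differences were positive. The median was 0.22 for the 1239 genes induced 2-fold to 4-fold and 0.48 for the 71 induced at least 16-fold. For the same groups of genes it was -0.08 and 0.01 with the retained share subtracted, as described below, and -0.18 and -0.03 with XCT790. Lost genes went the other way, with 33 higher and 1599 lower (62.9%) and a median of -1.03. Induced genes made up 33.6 ± 0.45% of the gene counts in KO-labelled libraries and 29 ± 2.34% in WT libraries (SD, n = 4 each), and lost genes 3.33 ± 0.378% in KO-labelled libraries and 6.28 ± 1.6% in WT libraries. The 416 count rested in part on single libraries: it was 133 without WT replicate 2, 249 without KO-labelled replicate 4, 266 without WT replicate 3 and 654 without KO-labelled replicate 2. With only the 8 libraries in the fit it was 85. The count of 902 over all genes likewise became 447 without WT replicate 2, 538 without KO-labelled replicate 4, 591 without WT replicate 3 and 1490 without KO-labelled replicate 2.

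Few of these induced-gene calls held when the unstimulated profile was taken out. The retained share of each library times the mean unstimulated profile of its genotype was subtracted from its counts. All p-values after subtraction take the share and the profile as known and carry no error of either. Over all genes this left 486 higher (3.95%) and 253 lower (2.05%). Among induced genes it left 17 higher and 44 lower, with a median of -0.08. All 17 were among the 416. With the share and the profile taken from the unstimulated library of the same run of library numbers, the counts were 21 higher and 56 lower among induced genes, and 723 (5.87%) higher and 284 (2.31%) lower over all genes. The subtraction did not take out all macrophage transcripts: 12 of the 34 myeloid and dendritic markers were still lower in KO-labelled cells, with a median of -1.66. A test against the largest rise that dilution by a share of 0.456 could give (0.877 on the log2 scale) left 60 genes higher (0.487%), of which 7 were induced. The same threshold downwards left 784 genes lower (6.36%), of which 0 were induced, but it sets no limit to the falls that retained transcripts could give. No induced gene was lower in that test at an unadjusted p under 0.05 either.

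The inhibitor-treated cells of both genotypes gave a second view. Their low retained shares were fixed by the choice of transcripts, and their libraries also defined the classes, each genotype against its own unstimulated cells, so the class counts below are a description. With XCT790, 913 genes were higher (7.4%) and 260 lower (2.11%) in KO-labelled than in WT cells, and with CompA 718 (5.82%) and 232 (1.88%). Among induced genes the counts were 24 higher and 146 lower with XCT790 and 19 higher and 118 lower with CompA, with medians of -0.19 and -0.17. Of the 416 induced genes higher in KO-labelled stimulated cells, 22 were higher and 11 lower with XCT790, and 18 were higher and 12 lower with CompA. The difference between these genotype effects was itself tested. Without inhibitor the effect was more positive for 1385 genes (11.2%) and more negative for 2544 (20.6%), and among induced genes for 1055 and 0. For those 0 the count at an unadjusted p under 0.05 was also 0, and so were the counts called by DESeq2 and by limma. With the retained share subtracted, 0 of 12315 genes passed this test (139 more positive and 397 more negative at an unadjusted p under 0.05), and with the same-run share 2 passed in each direction.

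**Figure D2:**
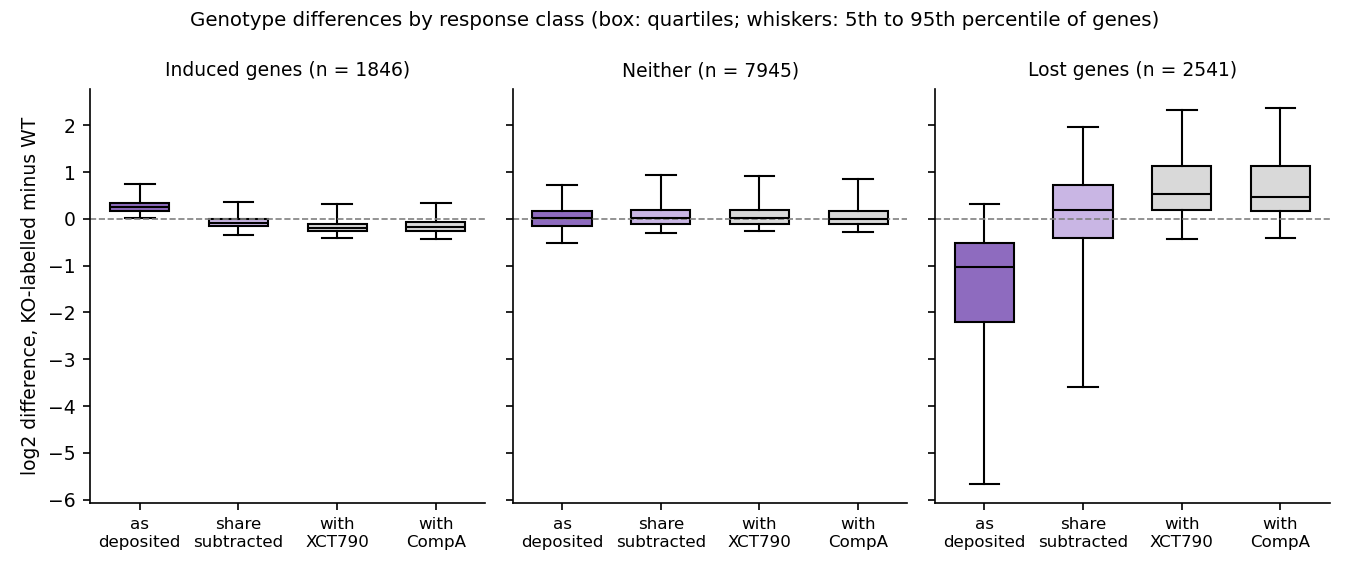
Log2 differences between KO-labelled and WT cells for induced genes, for genes in neither class and for lost genes, as deposited, with the retained share subtracted, and in cells stimulated with XCT790 or CompA. Boxes are quartiles, the line is the median and whiskers run from the 5th to the 95th percentile of genes. The induced genes centre on 0.25 as deposited and on -0.08, -0.19 and -0.17 in the other boxes, and the lost genes on -1.03 as deposited and on 0.19, 0.53 and 0.47 in the others.

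The induced genes that stayed higher in KO-labelled cells were led by Scg2, which encodes secretogranin II, a protein of secretory granules (chromosome 1, 79434366 to 79440026; GRCm38 for all positions). It stood at 18.7, 18.9, 24 and 28.4 CPM in KO-labelled replicates 1 to 4 and at 3.28, 2.09, 2.25 and 5.51 CPM in WT replicates 1 to 4. The groups were far apart, with the lowest KO-labelled library above the highest WT library. The log2 difference was 2.77 ± 0.3 (SE, 6.84-fold, adjusted p = 3.1e-08), and 2.3 with the share subtracted (adjusted p = 1.5e-05). It was 2.21 with XCT790, 2.3 with CompA and 3.17 in unstimulated cells, where levels were only 0.401 ± 0.102 CPM in KO-labelled cells and 0.0336 ± 0.041 CPM in WT cells (SD, n = 4 each).

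Fscn1 encodes fascin, which bundles actin filaments (chromosome 5, 142960355 to 142973189). Its levels were 135, 104, 165 and 201 CPM in KO-labelled replicates and 46.4, 58.7, 43.6 and 30.5 CPM in WT replicates, again without overlap. The log2 difference of 1.76 ± 0.32 (SE, 3.38-fold, adjusted p = 1e-04) was 1.32 with the share subtracted (adjusted p = 0.018), 1.41 with XCT790 (adjusted p = 0.0039) and 1.39 with CompA (adjusted p = 0.0049). In unstimulated cells its difference of 0.69 did not pass (adjusted p = 0.096).

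Scg2 and Fscn1 had the largest differences among induced genes that fit the naming rule (10 CPM or more, no overlap of libraries). The rule also required a call with the share subtracted. For the genes it named in each class, that call and the lack of overlap were therefore fixed by the choice. Their promoter windows are shown, from 250 bases before to 50 after the start of transcription. Those of Srxn1 and Emp1 (a gene in neither class, described further on) were added after their motif counts were seen, because each holds a repeated motif. The sequences are RefSeq's, build GRCm38.p6, written 5′ to 3′ on the strand of the gene. Capitals mark a match to the cAMP response element TGACGTCA or the AP-1 element TGANTCA on either strand; the NBRE, AAAGGTCA, was also searched on both strands. A CRE match does not contain an AP-1 match, and an NBRE match contains neither.
Scg2: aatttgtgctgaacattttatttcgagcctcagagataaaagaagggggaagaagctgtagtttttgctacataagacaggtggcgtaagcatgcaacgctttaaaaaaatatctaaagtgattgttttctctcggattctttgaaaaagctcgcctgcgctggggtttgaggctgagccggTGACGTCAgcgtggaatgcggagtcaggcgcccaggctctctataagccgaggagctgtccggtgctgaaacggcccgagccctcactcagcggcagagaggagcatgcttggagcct
Fscn1: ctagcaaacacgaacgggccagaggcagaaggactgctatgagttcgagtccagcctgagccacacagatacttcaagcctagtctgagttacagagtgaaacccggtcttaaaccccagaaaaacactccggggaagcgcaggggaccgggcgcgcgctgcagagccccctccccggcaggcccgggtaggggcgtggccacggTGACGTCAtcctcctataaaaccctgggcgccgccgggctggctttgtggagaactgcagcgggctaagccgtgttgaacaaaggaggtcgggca
Srxn1: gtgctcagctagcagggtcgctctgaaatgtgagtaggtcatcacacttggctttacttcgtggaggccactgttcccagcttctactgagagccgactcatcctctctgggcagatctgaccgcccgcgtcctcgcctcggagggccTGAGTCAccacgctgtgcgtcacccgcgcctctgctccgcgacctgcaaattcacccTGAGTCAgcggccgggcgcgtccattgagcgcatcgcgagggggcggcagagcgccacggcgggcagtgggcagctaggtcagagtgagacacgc
Emp1: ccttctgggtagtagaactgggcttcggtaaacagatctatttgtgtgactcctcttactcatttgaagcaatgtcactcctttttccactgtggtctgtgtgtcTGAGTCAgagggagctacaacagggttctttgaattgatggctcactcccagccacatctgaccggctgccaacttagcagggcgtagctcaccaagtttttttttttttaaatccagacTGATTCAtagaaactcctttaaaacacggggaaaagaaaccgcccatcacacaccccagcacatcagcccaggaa
The Scg2 window is chr1:79439977-79440276 (minus strand) and holds 1 CRE, starting at base -68 from the start of transcription, and the Fscn1 window is chr5:142960105-142960404 (plus strand) with 1 CRE at -45. The Srxn1 window, chr2:152105274-152105573 (plus strand), holds AP-1 matches at -102 and -45, and the Emp1 window, chr6:135362681-135362980 (plus strand, the first of 2 listed for the gene), at -145 and -25. None of the 4 windows held an NBRE. Over all tested genes with a window (9393 of 12332), 3.33% held a CRE, 4.93% an AP-1 element and 0.862% an NBRE. Of the 17 induced genes that stayed higher, 15 had a window, of which 2 held a CRE, 1 an AP-1 element and 0 an NBRE. Of the 163 genes in neither class that stayed higher, Emp1 among them, 117 had a window. Of these windows 4 held a CRE (3.42%), 15 an AP-1 element (12.8%) and 0 an NBRE. The differences between these shares were not tested. A match is a run of letters, not a measured binding site.

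Ifng, the gene of interferon gamma, the defining cytokine of T helper type 1 cells (chromosome 10, 118441046 to 118445894), stood at 120, 73.4, 242 and 162 CPM in KO-labelled replicates and at 43, 30.9, 71.9 and 52.1 CPM in WT replicates. KO-labelled replicate 2 lay just above the highest WT library. The difference of 1.59 ± 0.36 (SE, 3.01-fold, adjusted p = 0.0013) was 1.17 with the share subtracted (adjusted p = 0.047), 1.37 with XCT790, 1.26 with CompA and 1.58 in unstimulated cells, all past the threshold.

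Regulators of signalling and transcription followed. Crem, the cAMP response element modulator (chromosome 18, 3266354 to 3337773), had 84.8, 98.7, 85.8 and 109 CPM in KO-labelled replicates and 46.3, 44.1, 39.8 and 42.2 CPM in WT replicates, tight groups without overlap (2.19-fold, adjusted p = 1.3e-08). Its log2 difference of 1.13 ± 0.12 (SE) was 0.77 with the share subtracted (adjusted p = 0.00043) and passed with both inhibitors, but not in unstimulated cells (0.23, adjusted p = 0.14). Gadd45b, a stress-response activator of p38 signalling (chromosome 10, 80930091 to 80932204), stood at 130, 155, 108 and 105 CPM in KO-labelled replicates and at 57, 51, 61.3 and 57.1 CPM in WT replicates. It rose by 1.14 ± 0.15 on the log2 scale (SE, adjusted p = 5.6e-07), by 0.74 with the share subtracted (adjusted p = 0.0027) and by 0.49 with XCT790 (adjusted p = 0.028), while the 0.4 with CompA did not pass (adjusted p = 0.083). Tnip3, an inhibitor of NF-kB signalling (chromosome 6, 65590398 to 65634040), averaged 10.6 ± 3.19 CPM in KO-labelled cells and 3.9 ± 1.33 CPM in WT cells (SD, n = 4 each; log2 difference 1.44, adjusted p = 0.00015). It passed with the share subtracted (adjusted p = 0.037) and with XCT790 (0.033), and not with CompA (0.3).

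The remaining members were enzymes and cell cycle factors. Srxn1, sulfiredoxin, which repairs oxidised peroxiredoxins (chromosome 2, 152105524 to 152111376), averaged 17.8 ± 6.38 CPM in KO-labelled cells and 7.02 ± 1.39 CPM in WT cells, and its difference of 1.34 was 1.07 with the share subtracted (adjusted p = 0.016). Hccs, the synthase that attaches haem to cytochrome c (chromosome X, 169311530 to 169320374), had 255, 320, 239 and 259 CPM in KO-labelled replicates and 144, 98.8, 127 and 125 CPM in WT replicates. It rose 2.17-fold (log2 difference 1.12, adjusted p = 8.6e-09), by 0.79 with the share subtracted (adjusted p = 1.5e-05) and in the other 3 conditions as well. Nek6, a mitotic kinase (chromosome 2, 38483863 to 38587490), averaged 13 ± 3.58 CPM in KO-labelled cells and 5.83 ± 0.352 CPM in WT cells (adjusted p = 0.00017, and 0.027 with the share subtracted). Cks2, a subunit of cyclin-dependent kinases (chromosome 13, 51645232 to 51650662), averaged 22.4 ± 3.47 CPM in KO-labelled cells and 11.1 ± 1.44 CPM in WT cells. Its difference of 1.01 (adjusted p = 6.5e-05) passed with the share subtracted (0.62, adjusted p = 0.038) but was 0.06 with XCT790 and 0.27 with CompA, neither past the threshold.

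Another 7 induced genes held with the share subtracted but fell outside the naming rule, by level, overlap or rank, and are named after their values were seen. Gls2, a mitochondrial glutaminase, stood at 4.67, 3.52, 5.55 and 6.02 CPM in KO-labelled replicates 1 to 4 and at 2.22, 1.54, 1.45 and 1.94 CPM in WT replicates 1 to 4 (log2 difference 1.47, and 0.98 with the share subtracted, adjusted p = 0.015). Tprkb, a subunit of the KEOPS complex that modifies transfer RNAs, rose by 0.71 (0.41 with the share subtracted, adjusted p = 0.0037). Gng4, a G protein gamma subunit, Flrt3, a leucine-rich transmembrane protein, and Bend4, Enkd1 and Klrg2 were the others, with log2 differences of 1.98, 2.33, 1.07, 1.28 and 2.45 at levels below 10 CPM. Of the 17 genes, 10 were also higher with both inhibitors: Scg2, Fscn1, Ifng, Srxn1, Nek6, Crem, Hccs, Bend4, Flrt3 and Gng4. The 7 induced genes past the test against the largest retained share were Scg2, Fscn1, Flrt3, Gls2, Gng4, Klrg2 and Dll4, the gene of a Notch ligand (1.95, adjusted p = 0.0015 as deposited and 0.067 with the share subtracted).

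**Figure D3:**
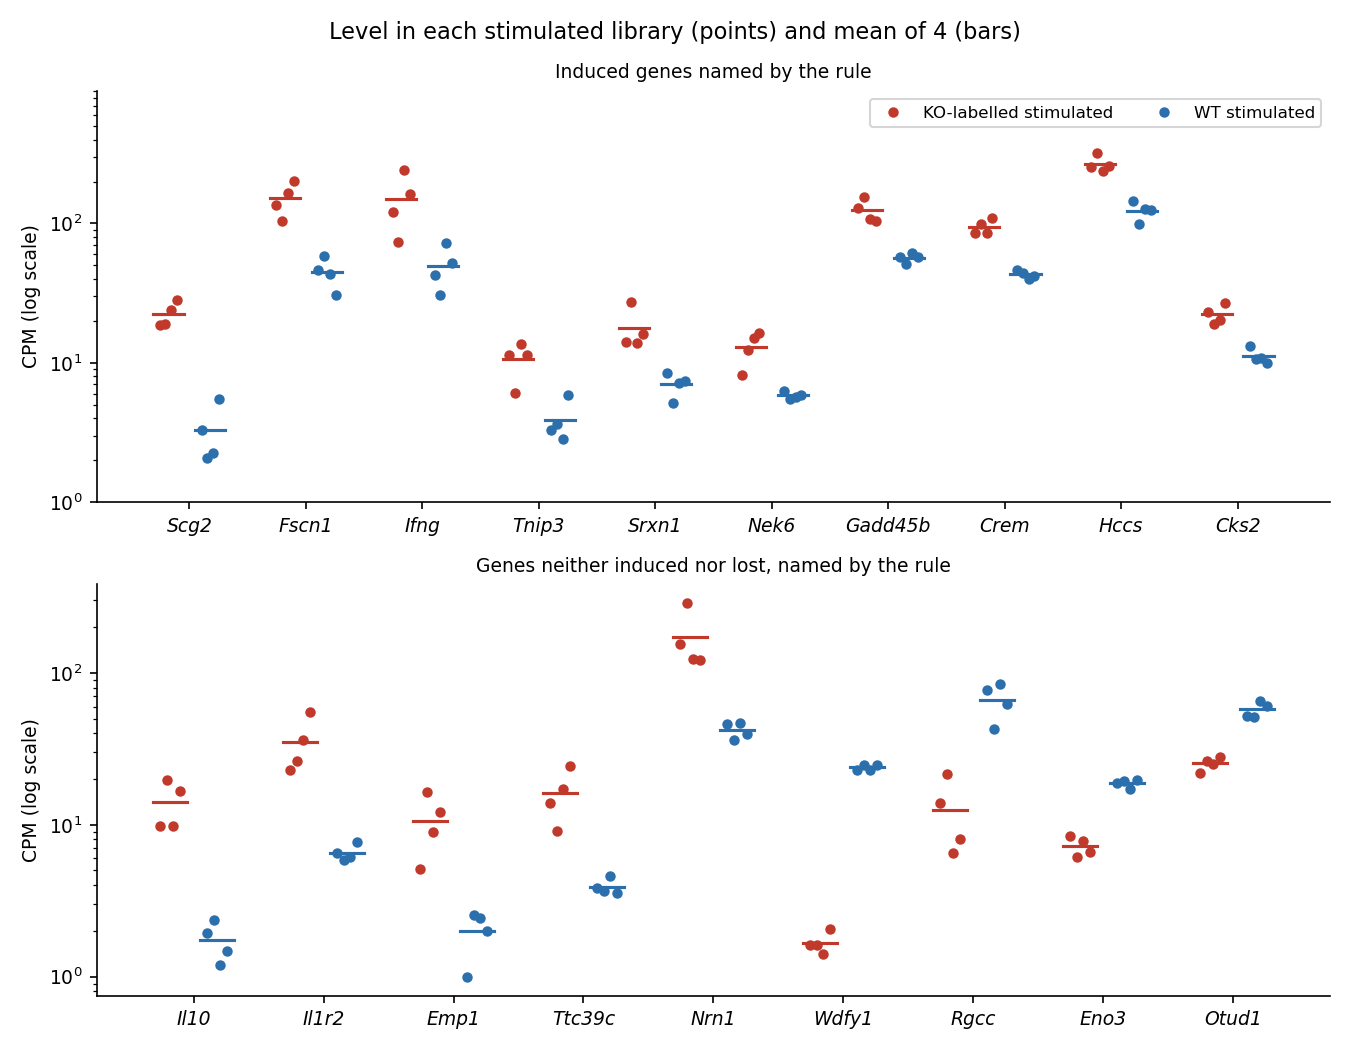
CPM on a log scale in each stimulated library, KO-labelled points left of WT points for each gene, with a bar at the mean of 4. The upper panel holds the 10 induced genes named by the rule. The lower panel holds the genes neither induced nor lost that it named, without Adamdec1. The rule left out genes with overlapping libraries, so no KO-labelled library lies within the WT range. Examples are Scg2 (22.5 CPM in KO-labelled and 3.28 CPM in WT cells on average) and Wdfy1 (1.67 and 23.9 CPM).

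The 3 induced genes that fell in KO-labelled cells were Bcl2l11, Lgals7 and Prokr1. Bcl2l11, which encodes the pro-apoptotic protein Bim (chromosome 2, 128126038 to 128162547), had 67.9, 114, 95.9 and 106 CPM in KO-labelled replicates and 108, 135, 137 and 118 CPM in WT replicates. KO-labelled replicate 2 lay within the WT range. The difference of -0.38 (adjusted p = 0.04) was -0.6 with the share subtracted (adjusted p = 0.013), -0.54 with XCT790 (0.0095), -0.65 with CompA (0.0023) and -0.64 in unstimulated cells (0.0011). Its call as deposited was lost without KO-labelled replicate 1 or 3 or WT replicate 2 or 3, with adjusted p up to 0.24. Lgals7, galectin-7, averaged 3.26 CPM in KO-labelled cells and 5.85 CPM in WT cells (adjusted p = 0.023, and up to 0.084 without KO-labelled replicate 2 or 3 or WT replicate 3). Prokr1, a prokineticin receptor, averaged 1.19 CPM in KO-labelled cells and 2.23 CPM in WT cells (adjusted p = 0.017). Both passed with the share subtracted. The count of 3 was 1 without WT replicate 3.

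Another 41 induced genes were called lower only once the share was subtracted, and 23 of them were also lower with XCT790 and 20 with CompA. Examples, named after their values were seen, were Crabp2, a carrier of retinoic acid, Ccl1, a chemokine, and Stap1, an adaptor of receptor signalling. Crabp2 had 34.9, 20.8, 38.7 and 76.3 CPM in KO-labelled replicates and 77.3, 64, 77 and 94.8 CPM in WT replicates, so that KO-labelled replicate 4 overlapped the WT range (-0.87, adjusted p = 0.063). It stood at -1.36 with the share subtracted (adjusted p = 0.019), -1.34 with XCT790 (0.014) and -1.9 with CompA (0.00084). Ccl1 gave -0.53 as deposited (adjusted p = 0.1), -1.03 with the share subtracted (0.012), -1.04 with XCT790 and -1.49 with CompA, and Stap1 -0.16 as deposited (adjusted p = 0.27), -0.53 with the share subtracted, -0.54 with XCT790 and -0.57 with CompA.

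Of the genes in neither class, 453 rose, and 163 of them also rose with the share subtracted and 140 with both inhibitors. Another 607 fell, of which 56 also fell with the share subtracted and 29 with both inhibitors. Il10, the anti-inflammatory cytokine gene (chromosome 1, 131019845 to 131024970), stood at 9.87, 19.8, 9.8 and 16.7 CPM in KO-labelled replicates and at 1.93, 2.36, 1.2 and 1.47 CPM in WT replicates, a wide gap. Its log2 difference was 3.01 ± 0.36 (SE, 8.08-fold, adjusted p = 1.4e-07), and it was 3.11 with the share subtracted, 2.94 with XCT790, 2.79 with CompA and 2.57 in unstimulated cells. Il1r2, the decoy receptor that binds interleukin 1 without signalling (chromosome 1, 40084692 to 40125230), had 23.1, 26.2, 36.3 and 55.6 CPM in KO-labelled replicates and 6.56, 5.83, 6.14 and 7.67 CPM in WT replicates. It rose 5.4-fold (adjusted p = 2.7e-06) and passed in every other condition.

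Nrn1 encodes neuritin, first described as a neuronal growth factor (chromosome 13, 36725622 to 36734477). It had 154, 290, 124 and 122 CPM in KO-labelled replicates and 46.2, 36.2, 46.8 and 39.6 CPM in WT replicates (log2 difference 2.03, adjusted p = 3.8e-07), without overlap. Emp1, a membrane protein gene (chromosome 6, 135362550 to 135383173), averaged 10.6 ± 4.76 CPM in KO-labelled cells and 1.99 ± 0.704 CPM in WT cells, and Ttc39c (chromosome 18, 12583103 to 12739404) 16.1 ± 6.32 CPM in KO-labelled cells and 3.91 ± 0.462 CPM in WT cells (SD, n = 4 each). The differences of these 3 genes passed with the share subtracted and in every other condition.

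Among genes of neither class lower in KO-labelled cells was Wdfy1. It encodes an adaptor of Toll-like receptor signalling (chromosome 1, 79702262 to 79776143) and stood at 1.61, 1.61, 1.4 and 2.05 CPM in KO-labelled replicates and at 23.1, 24.7, 22.8 and 24.8 CPM in WT replicates. Both groups were tight and far apart. The log2 difference was -3.83 ± 0.13 (SE, 14.2-fold lower, adjusted p = 3.1e-18), with -3.86 after subtraction, -3.68 with XCT790, -3.79 with CompA and -2.3 in unstimulated cells. Rgcc, a regulator of the cell cycle (chromosome 14, 79288750 to 79301635), had 14, 21.6, 6.55 and 8.02 CPM in KO-labelled replicates and 76.9, 42.5, 84.6 and 62.4 CPM in WT replicates (5.35-fold lower, adjusted p = 1.2e-06). Eno3, the muscle-type enolase of glycolysis (chromosome 11, 70653125 to 70662513), averaged 7.25 ± 1.08 CPM in KO-labelled cells and 18.8 ± 1.1 CPM in WT cells, and Otud1, a deubiquitinase (chromosome 2, 19657731 to 19661279), 25.3 ± 2.63 CPM in KO-labelled cells and 57.5 ± 6.88 CPM in WT cells. Both fell with the share subtracted and with both inhibitors.

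Adamdec1, a metalloprotease-like gene of macrophages and dendritic cells (chromosome 14, 68563387 to 68582072), was at 0 in all 4 KO-labelled libraries, where 3 counts correspond to 0.127 to 0.176 CPM, and at 8.43, 41.3, 14.8 and 13.3 CPM in WT replicates. Against 3 counts over the KO-labelled group it was at least 504-fold lower, by counting error only. Like the myeloid sum it was highest in WT replicate 2. In unstimulated cells Adamdec1 averaged 0.0212 ± 0.0245 CPM in KO-labelled and 61.1 ± 24.6 CPM in WT cells (SD, n = 4 each, edgeR adjusted p = 7.5e-08). WT cells averaged 0.0146 ± 0.0293 CPM of it with XCT790 and 0 CPM with CompA. It is not in the lost class, which required a fall in both genotypes. C1qa averaged 143 CPM in KO-labelled and 369 CPM in WT unstimulated cells. The part of macrophages and dendritic cells in the Adamdec1 difference was not tested.

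**Figure D4:**
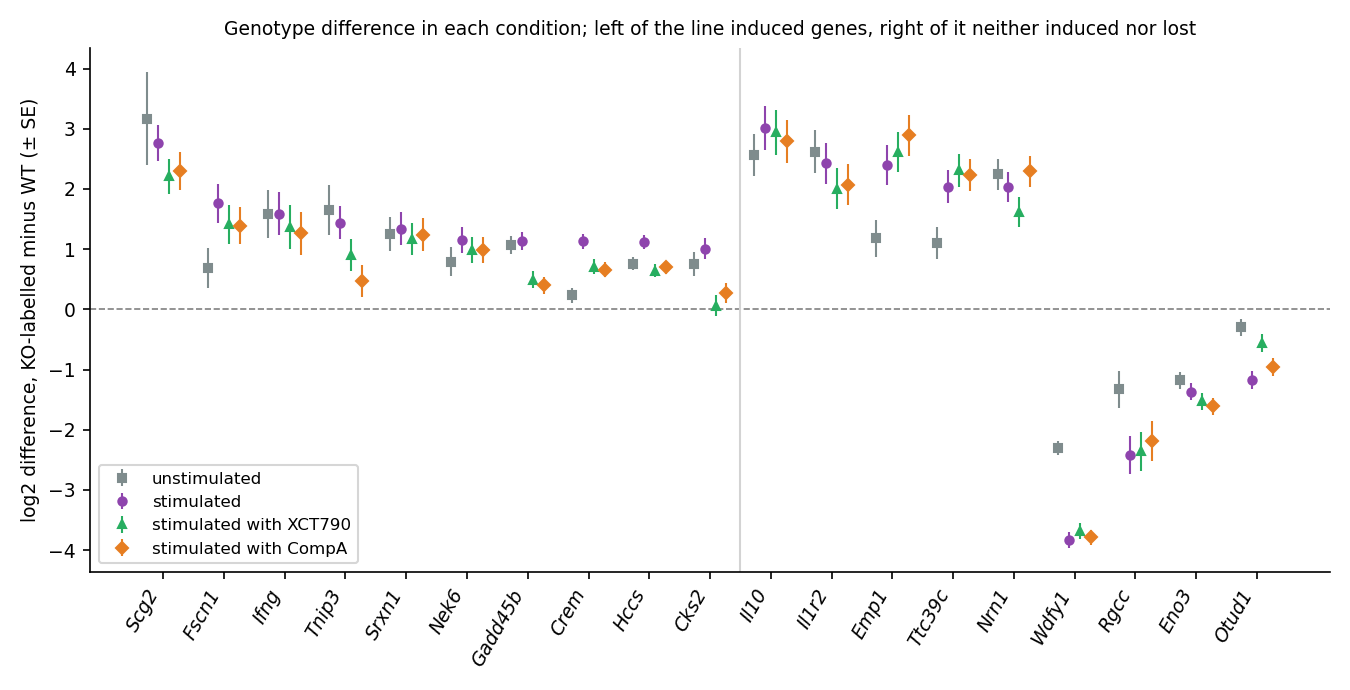
Log2 difference between KO-labelled and WT cells, with its SE, for the named genes in unstimulated cells, stimulated cells, and cells stimulated with XCT790 or CompA. Induced genes are left of the line and genes in neither class, without Adamdec1, right of it. Il10, Il1r2 and Wdfy1 keep their sign and pass in all 4 conditions, while Cks2 lies near 0 with XCT790 (0.06).

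A gene is said here to hold when it also passed with the share subtracted. Counts of gene groups after subtraction come from that fit alone, and the members need not be those called as deposited. Group counts are read beside the 7.31% of all genes higher and 17.9% lower as deposited, and the 3.95% and 2.05% with the share subtracted. Of 22 effector cytokines tested, 8 rose and 1 fell with a median of 0.69, and with the share subtracted 8 rose and 0 fell with a median of 0.54. Only 4 genes were among the 8 both times, Il10 and Ifng with Il21 and Areg. Il21, which supports B cell help, had 7.57, 12, 13.7 and 18.1 CPM in KO-labelled replicates and 3.45, 2.36, 2.1 and 4.73 CPM in WT replicates (2.02, adjusted p = 0.00016, and 0.0034 with the share subtracted). Areg, amphiregulin, a growth factor of tissue repair, averaged 2.25 ± 0.647 CPM in KO-labelled cells and 0.42 ± 0.0726 CPM in WT cells (5.29-fold), and also passed with the share subtracted (adjusted p = 0.00031). Lif, leukaemia inhibitory factor, rose 1.99-fold as deposited and did not pass with the share subtracted (0.53, adjusted p = 0.13). Among 12 chemokines 4 rose and 0 fell as deposited, and 2 rose and 1 fell after subtraction. Cxcl10, the interferon-induced ligand of CXCR3, averaged 15.7 ± 4.01 CPM in KO-labelled cells and 5.22 ± 0.665 CPM in WT cells and held (adjusted p = 0.00023), whereas the difference of 1.24 in Ccl3 did not (adjusted p = 0.15).

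Of 15 genes of regulatory T cells, the suppressive part of the CD4+ lineage, 8 rose and 1 fell (median 0.63). With the share subtracted 6 rose and 0 fell (median 0.88), 5 of them among the 8, and the list holds Il10 as well. Ctla4, the inhibitory receptor for CD80 and CD86, had 54.7, 72.8, 66.6 and 77.7 CPM in KO-labelled replicates and 27.5, 43, 26.8 and 29.6 CPM in WT replicates, without overlap (log2 difference 1.1, adjusted p = 3.4e-05). Its difference was 1.26 with the share subtracted, 1.07 with XCT790 and 1.37 with CompA. Tnfrsf18, the receptor GITR, rose by 0.76 (adjusted p = 0.00015) and gave 0.47 with the share subtracted (adjusted p = 0.06). Costimulatory receptors and ligands of the TNF family went both ways: 10 of 22 rose and 4 fell as deposited, and 3 rose and 3 fell after subtraction. Called both times were 2 higher and 3 lower. Tnfrsf8, the receptor CD30, averaged 11.5 ± 7.99 CPM in KO-labelled cells and 3.08 ± 0.218 CPM in WT cells and held (adjusted p = 0.018), and Icos, counted in the same list, gave 0.5 with the share subtracted (adjusted p = 0.11).

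Among 24 lineage transcription factors 7 rose and 4 fell, and 5 rose and 0 fell with the share subtracted. Only 3 rose both times. Zbtb32, a repressor also called ROG, averaged 20.4 ± 3.77 CPM in KO-labelled cells and 8.64 ± 3.26 CPM in WT cells and held (1.24, and 0.88 after subtraction, adjusted p = 0.026). Irf4, a factor of T cell receptor strength, averaged 1530 ± 251 CPM in KO-labelled cells and 1110 ± 139 CPM in WT cells (adjusted p = 0.0035), and its difference was -0.02 after subtraction (adjusted p = 0.96). Signal-induced transcription factors split, with 5 of 24 higher and 4 lower as deposited and 2 higher and 1 lower after subtraction. Fos, a subunit of AP-1 and a lost gene here, stood at 11.3, 10.9, 7.3 and 5.84 CPM in KO-labelled replicates and at 61.5, 235, 115 and 86.2 CPM in WT replicates, with WT replicate 2 highest. Its difference of -3.83 (adjusted p = 1.1e-10) did not pass after subtraction (-2.07, adjusted p = 0.11), nor did that of Jun (-1.91 as deposited, 0.56 after subtraction, adjusted p = 0.43). Fosl2 rose by 0.81 (adjusted p = 0.00059), with 0.56 after subtraction (adjusted p = 0.052). Of 25 genes of negative feedback on signalling, 3 rose and 5 fell, and 2 rose and 2 fell after subtraction (2 higher and 1 lower both times). In that list the phosphatase gene Dusp14 rose 4.11-fold and held (adjusted p = 0.00061), while Dusp1 fell by 2.15 as deposited and gave -0.16 after subtraction (adjusted p = 0.93).

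Interferon-stimulated genes gave different counts as deposited and with the share subtracted. Of 32 tested, 22 of them lost genes, 6 rose and 4 fell as deposited (median 0.04). With the share subtracted 10 rose and 0 fell (median 1.07), and only 3 of the 10 were among the 6. The summed level of the list was 2600, 1460, 3260 and 2870 CPM in KO-labelled replicates 1 to 4, against 1640 to 2320 CPM in WT libraries. With XCT790 15 rose and 0 fell (median 1.05), and with CompA 14 rose and 0 fell (median 1.08). Ddx58, which encodes the RNA sensor RIG-I, had 8.16, 3.71, 9 and 8.98 CPM in KO-labelled replicates and 15.3, 45.5, 30.2 and 27.2 CPM in WT replicates, lower in KO-labelled cells without overlap (-1.98, adjusted p = 2.3e-07). The difference was 0.85 after subtraction (adjusted p = 0.4), 1.4 with XCT790 (0.001) and 1.36 with CompA (0.0015). Gbp3, a guanylate-binding protein of cell-autonomous defence, rose by 0.79 as deposited (adjusted p = 0.00049) and by 1.03 after subtraction, and Iigp1, an immunity-related GTPase gene, by 1.32 as deposited (adjusted p = 0.0029), with 0.96 after subtraction (adjusted p = 0.11).

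Members of growth lists passed the test as deposited, and most did not after subtraction. Of 33 ribosome biogenesis genes, 30 of them induced, 7 rose and 0 fell (median 0.26). Over all induced genes 22.5% rose, with a median of 0.25. After subtraction 0 of the 33 rose and 1 fell (median -0.1, and -0.08 over all induced genes). Noc2l, a nucleolar assembly factor, stood at 635, 523, 640 and 645 CPM in KO-labelled replicates and at 525, 415, 513 and 524 CPM in WT replicates, lowest in replicate 2 of each group (0.3 as deposited, -0.06 after subtraction). Of 41 DNA replication genes, 21 of them induced, 12 rose and 0 fell (median 0.36). After subtraction 0 passed edgeR (median 0.02), with 2 higher and 0 lower at an unadjusted p under 0.05. Among the 12 called as deposited, only the 3 named genes were read without each library in turn, and each lost its call. Cdc45 did not pass without KO-labelled replicate 4 or WT replicate 2, nor Rrm2 without KO-labelled replicate 4 or WT replicate 3, and Rpa2 did not without WT replicate 2. Rrm2, a subunit of ribonucleotide reductase, gave 1.06 as deposited (adjusted p = 0.016) and 0.87 after subtraction (0.13), Cdc45, of the replicative helicase, 0.72 and 0.33, and Rpa2, which binds single-stranded DNA, 0.36 and 0.1. Of 25 mitosis genes 7 rose and 0 fell as deposited and 0 passed edgeR after subtraction (16 higher and 0 lower at an unadjusted p under 0.05), with medians of 0.94 as deposited and 1.1 after it. The sum over mitosis genes was 229, 75.1, 313 and 320 CPM in KO-labelled replicates 1 to 4, against 109 to 147 CPM in WT libraries. Among them were Cdca8 (0.83, adjusted p = 0.0076) and Aurkb (1.25, adjusted p = 0.019), subunits of the chromosomal passenger complex, which gave 0.61 (adjusted p = 0.13) for Cdca8 and 1.19 (adjusted p = 0.088) for Aurkb after subtraction. Aurkb did not pass as deposited without KO-labelled replicate 4 or without WT replicate 3 or 4.

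Of 25 heat shock and unfolded protein response genes, 14 of them induced, 7 rose and 0 fell. After subtraction 1 gene outside the 7 rose (median -0.03), so 0 rose both times. Hspa5, the chaperone BiP, stood at 1620, 1310, 1640 and 1640 CPM in KO-labelled replicates and at 1310, 1060, 1150 and 1340 CPM in WT replicates, and its difference of 0.36 (adjusted p = 0.004) was 0.03 after subtraction. Of 29 glycolysis and hypoxia genes, 14 of them induced, 7 rose and 2 fell. After subtraction 1 rose: Egln3, an oxygen-sensing hydroxylase (0.85, adjusted p = 0.045). Pdk1, which restrains entry of pyruvate into mitochondria, fell by 0.84 as deposited and gave -0.11 after subtraction (adjusted p = 0.81). Of 28 genes of the ATF4 amino acid response, 23 of them induced, 4 rose and 0 fell. After subtraction 0 passed edgeR (1 in each direction at an unadjusted p under 0.05). Asns, asparagine synthetase, was among the 4 (0.92, adjusted p = 0.0015). Of 75 oxidative phosphorylation genes, 29 of them induced, 2 rose and 0 fell. After subtraction 0 passed edgeR and 0 had an unadjusted p under 0.05. The 2, Ndufa10 (edgeR adjusted p = 0.041) and Cycs (0.042), each lost the call in several fits without 1 library (adjusted p up to 0.13). Of 29 genes of cholesterol and fatty acid synthesis 0 passed edgeR as deposited, 0 had an unadjusted p under 0.05 and 0 passed DESeq2. After subtraction 0 rose and 2 fell (median -0.2), with 1 higher and 5 lower at an unadjusted p under 0.05.

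Genes of resting T cells, 16 of the 22 tested being lost genes, were lower in KO-labelled cells as deposited: 0 rose and 16 fell (median -0.97). Over all lost genes 62.9% fell, with a median of -1.03. After subtraction 0 of the 22 passed edgeR (median -0.02, with 1 higher and 4 lower at an unadjusted p under 0.05). Pik3ip1, an inhibitor of PI3 kinase, stood at 3.59, 3.58, 2.65 and 2.75 CPM in KO-labelled replicates and at 23.5, 86.1, 59.5 and 28.3 CPM in WT replicates. Tsc22d3, the glucocorticoid-induced leucine zipper, had 11.9, 15.8, 7.85 and 8.07 CPM in KO-labelled replicates and 54.2, 237, 137 and 69 CPM in WT replicates, again highest in WT replicate 2. Neither passed after subtraction (adjusted p = 0.1 and 0.18). Of 29 cytokine receptors, 13 of them lost genes, 3 rose and 13 fell. After subtraction 4 rose and 0 fell, with only 1 higher both times. Il7r, the receptor for the survival cytokine interleukin 7, had 13.1, 10, 15 and 15.7 CPM in KO-labelled replicates and 76.3, 338, 235 and 116 CPM in WT replicates (-3.82, and -2.04 after subtraction, adjusted p = 0.16). Tgfbr2, a receptor for TGF-beta, gave -1.07 as deposited and 0.19 after subtraction.

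Of 22 chemokine and homing receptors, 16 of them lost genes, 1 rose and 10 fell, against 62.9% lower over all lost genes. After subtraction 3 rose and 1 fell, with 1 higher and 1 lower both times. S1pr1, which guides exit from lymph nodes, fell by 2.38 as deposited and gave -0.17 after subtraction (adjusted p = 0.93) and 1.05 with XCT790 (0.026). Itgb7, an integrin of gut homing, had 86.7, 64.5, 83 and 82.9 CPM in KO-labelled replicates and 207, 343, 319 and 201 CPM in WT replicates, a difference of -1.75, and was higher in KO-labelled cells with XCT790 (1, adjusted p = 0.00058) and CompA (0.96, 0.00097). Of 17 inhibitory receptors and exhaustion factors, 7 of them lost genes, 4 rose and 6 fell. After subtraction 3 rose and 1 fell, with 1 higher and 1 lower both times.

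Of the 33 lost genes that rose in KO-labelled cells, 30 rose after subtraction, 29 with XCT790 and 29 with CompA. The count was 18 without KO-labelled replicate 4, 20 without WT replicate 1 and 21 without WT replicate 3. Angptl2, a secreted angiopoietin-like protein gene (chromosome 2, 33215951 to 33247725), had 20.8, 37.9, 28.3 and 30.1 CPM in KO-labelled replicates and 12, 10.2, 11.4 and 15.6 CPM in WT replicates (2.37-fold, adjusted p = 0.00083). Dok2, an adaptor that restrains receptor signalling (chromosome 14, 70765889 to 70778494), averaged 74.1 ± 14 CPM in KO-labelled cells and 50.7 ± 8.46 CPM in WT cells. Its difference of 0.55 (adjusted p = 0.013) did not pass without KO-labelled replicate 1 or without WT replicate 4 (adjusted p up to 0.061), and it was 1.11 after subtraction. Of the 1599 lost genes that fell, 106 fell after subtraction, while with XCT790 8 were lower and 216 higher, and with CompA 11 were lower and 159 higher. The Cd163, Emr4 and Slco2b1 differences passed after subtraction, but Emr4 and Slco2b1 did not with the same-run share (adjusted p = 0.053 and 0.12).

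**Figure D5:**
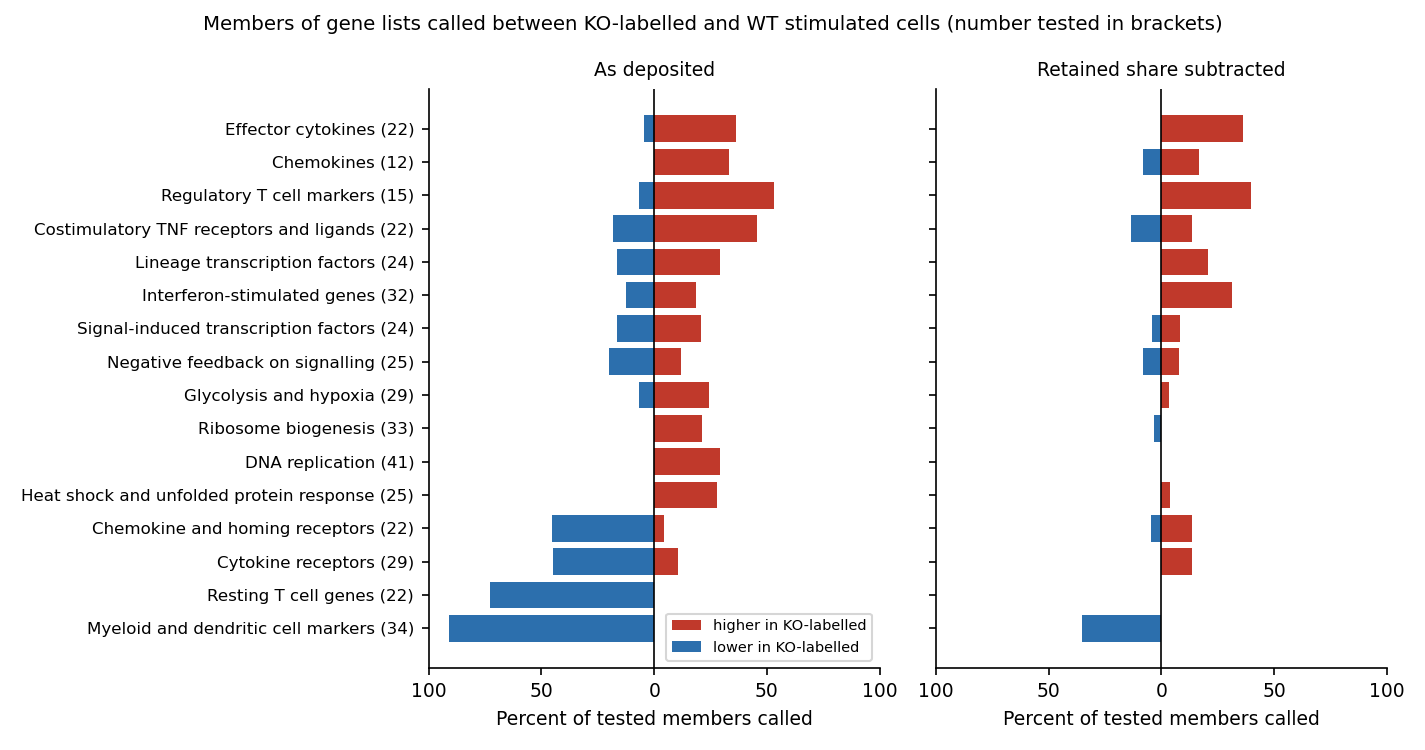
Percent of tested members of each list called higher (right) or lower (left) in KO-labelled stimulated cells, as deposited and with the retained share subtracted, with the number tested in brackets. Called higher after subtraction are 8 of 22 effector cytokines and 10 of 32 interferon-stimulated genes, while 0 of 41 DNA replication genes and 0 of 22 resting T cell genes are called.

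Genes whose 4 and 4 libraries did not overlap numbered 604 higher (4.9%) and 1666 lower (13.5%) in KO-labelled cells. Of the 416 induced genes higher, 190 were among them, and of the 1599 lost genes lower, 1233. The retained share, the myeloid sum and the resting T cell sum also separated the groups without overlap, and their part in the difference of any single gene was not tested beyond the subtractions above.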

How the data were processed

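The deposited files hold whole-number read counts per gene and library. Per the submitters' processing notes, Trimmomatic 0.36, HISAT2 2.1.0, SAMtools, HTSeq 0.9.1, R 3.4.4 and DESeq2 1.18.1 were used with mm10. Strand setting and annotation version: not given in the sources used here. Each count file's 5 summary lines were left out. All 32 libraries entered 1 edgeR 4.0.16 quasi-likelihood fit (R 4.3.3, TMM, filterByExpr), with Benjamini-Hochberg adjustment over all 12332 genes tested of 24302 and a threshold of 0.05. SEs are of log2 differences, and CPM is scaled by TMM. Counting limits cover counting error only.

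Transcripts for the retained share had at least 10 CPM in unstimulated cells of both genotypes and at most 2% of that in each inhibitor group. Named genes were Nr4a1 to Nr4a3, then the largest differences per class called as deposited and with the share subtracted, at 10 CPM or more in the higher group without overlap of libraries (10 induced, 5 in neither class per direction, 5 lost higher and 3 lost lower), and up to 4 members of each list by adjusted p. Members, lists and classes were chosen with earlier results of these data known. Alternatives used limma 3.58.1 with a block for runs of 4 library numbers (correlation 0.294) and DESeq2 1.42.0. Stimulated and unstimulated libraries of a run deviated together, with correlations of 0.172 to 0.438 in KO-labelled and 0.44 to 0.657 in WT cells, though KO-labelled replicate 4 (0.172) did not correlate best with its own run. The same-run subtraction and the fit without replicate 2 of both groups were added after the data were seen. No libraries of a group were copies of each other (chi-square per degree of freedom at least 13.2). Positions and promoters are from RefSeq GRCm38.p6, where 24168 gene names matched.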

Additional observations from a re-analysis of the deposited data

Results flagged for a closer look

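Some libraries stood far from the other 3 of their group. Such a distance is met by chance in about 1 in 20 groups. KO-labelled replicate 2 had 27.2 CPM of Srxn1 (13.8 to 16.1 in the others), 21.6 of Cxcl10 (13.3 to 14.4), 26.1 of Zbtb32 (18.1 to 19), 64.5 of Itgb7 (82.9 to 86.7), 3.71 of Ddx58 (8.16 to 9), 523 of Noc2l (635 to 645) and 1310 of Hspa5 (1620 to 1640). Its marker sums of 1590 CPM for B cells (387 to 518 in the others) and 246 CPM for erythroid cells and platelets (5.37 to 20.2) also stood apart. KO-labelled replicate 1 had 116 CPM of Pdk1 (94.7 to 97.8), 0.107 CPM of Slco2b1 (0 in the others) and a plasma cell marker sum of 1360 CPM (1890 to 1910). KO-labelled replicate 4 had 0.0436 CPM of Cd163 (0 in the others), which is 1 count. WT replicate 2 had 110 CPM of Iigp1 (63.6 to 66.9) and 415 of Noc2l (513 to 525). WT replicate 1 had 73.1 CPM of Msl3 (65.7 to 66.5) and an erythroid and platelet marker sum of 123 CPM (26.6 to 30.9).

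The genotype difference in stimulated cells differed from the mean of those with XCT790 and CompA for several named genes (difference of log2 differences with its SE, adjusted p of edgeR over all genes). It was more positive without inhibitor for Gadd45b (0.69 ± 0.18, adjusted p = 0.0038), Crem (0.45 ± 0.14, adjusted p = 0.017), Hccs (0.44 ± 0.14, adjusted p = 0.014), Cks2 (0.84 ± 0.21, adjusted p = 0.0036), Tprkb (0.39 ± 0.12, adjusted p = 0.012), Enkd1 (1.05 ± 0.34, adjusted p = 0.019) and Stap1 (0.39 ± 0.13, adjusted p = 0.021). The same held for Irf4 (0.42 ± 0.14, adjusted p = 0.024), Asns (0.8 ± 0.25, adjusted p = 0.017), Rpa2 (0.43 ± 0.13, adjusted p = 0.009), Noc2l (0.4 ± 0.094, adjusted p = 0.0016), Hspa5 (0.32 ± 0.11, adjusted p = 0.031) and Msl3 (0.26 ± 0.069, adjusted p = 0.005). It was more negative for Dok2 (-0.59 ± 0.2, adjusted p = 0.026), Pdk1 (-0.58 ± 0.13, adjusted p = 0.00094), Tgfbr2 (-1.31 ± 0.14, adjusted p = 6.9e-08), Il7r (-4.49 ± 0.52, adjusted p = 1.7e-07), S1pr1 (-3.56 ± 0.37, adjusted p = 2.9e-08) and Itgb7 (-2.73 ± 0.23, adjusted p = 6.1e-10). It was also more negative for Fos (-3.93 ± 0.37, adjusted p = 3.8e-09), Jun (-2.52 ± 0.31, adjusted p = 3.1e-07), Dusp1 (-3.08 ± 0.43, adjusted p = 2.7e-06), Ddx58 (-3.36 ± 0.31, adjusted p = 3e-09), Pik3ip1 (-4.43 ± 0.41, adjusted p = 3.6e-09) and Tsc22d3 (-3.97 ± 0.42, adjusted p = 3.4e-08). The macrophage transcripts C1qa (-7.13 ± 0.49, adjusted p = 2.5e-11), Emr4 (-10.17 ± 2.6, adjusted p = 0.0036) and Slco2b1 (-9.25 ± 3.4, adjusted p = 0.037) were among these, and the fitted sizes of Emr4 and Slco2b1 depend on the prior count. With the retained share subtracted, 0 genes passed this test (139 more positive and 397 more negative at an unadjusted p under 0.05).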

How the results depend on the processing

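As deposited, 3111 genes differed, 902 higher and 2209 lower in KO-labelled cells, and 416 induced genes were higher and 3 lower, 33 lost genes higher and 1599 lower. With the share subtracted these were 739, 486, 253, 17, 44, 177 and 106. With the share from summed CPM they were 736, 485, 251, 17, 46, 175 and 104, and against the largest rise that dilution by the share could give 844, 60, 784, 7, 0, 5 and 769. The same-run share, added after the data were seen, gave 1007, 723, 284, 21, 56, 370 and 97. With only the 8 libraries in the fit 1438 genes differed, 257 higher and 1181 lower, with 85 induced and 14 lost genes higher and 1015 lost genes lower. The difference between genotype effects, 3929 genes, became 0, 0, 945 and 4 under the subtracted, summed, largest and same-run share.

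DESeq2 size factors gave 1435 genes higher and 697 induced genes higher, the DESeq2 test 1669 and 812, and no filter on low counts 651 induced genes higher. Library totals and classes from XCT790 contrasts each gave 5 induced genes lower. Classes at 4-fold gave 118 induced genes higher and 0 lower, and 7 lost genes higher and 995 lower. With the replicate block (run of library numbers, limma-voom) 997 genes were higher, 2173 lower, 503 induced genes higher and 5 lower, and no other count moved by over 1.5 times. Without replicate 2 of both groups, added after the data were seen, 212 induced genes were higher and 8 lower.

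Leaving out 1 library at a time gave 447 to 1490 genes higher, 133 to 654 induced genes higher and 1 to 4 lower, and 18 to 41 lost genes higher.

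Some named differences changed sign under the subtracted, summed and same-run share: Tgfbr2 (0.19, 0.24, 0.1), Itgb7 (0.41, 0.4, 0.89), Irf4 (-0.02, -0.03, -0.01), Jun (0.56, 0.69, 0.9), Ddx58 (0.85, 0.8, 1.62) and Noc2l (-0.06, -0.07, -0.06). Under the same-run share alone S1pr1 (1.87), Dusp1 (0.86), Pik3ip1 (0.64) and Tsc22d3 (0.79) did. Apart from the subtraction's own construction, the cause was not tested. Transcripts of a few counts, such as Klrg2 and Flrt3, are limited by depth.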

Other observations

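Of the 12332 genes tested, 164 (1.33%) differed in the same direction in all 4 conditions, 141 higher and 23 lower in KO-labelled cells. Some of these lie close together, a pattern noticed after the values were seen. Scg2 and Wdfy1, on chromosome 1, are 262 kb apart. Scg2 was higher in KO-labelled cells (log2 difference 2.77 when stimulated) and Wdfy1 lower (-3.83), while Ap1s3, which lies between them, stood at 0.04 (adjusted p = 0.81). Of 12 tested genes within 1 Mb of the pair, these were the 2 called in all 4 conditions.

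On chromosome X, Gpm6b, Prps2, Msl3 and Hccs were higher in KO-labelled cells in all 4 conditions, 4 of the 14 tested genes in a stretch with 2920 kb between Gpm6b and Hccs and 1 Mb on either side. Msl3, a subunit of a chromatin complex, had 153, 162, 159 and 169 CPM in KO-labelled stimulated replicates and 73.1, 65.7, 65.8 and 66.5 CPM in WT stimulated replicates (log2 difference 1.25, adjusted p = 1.8e-15, and 0.97 to 1.03 in the other conditions). Gpm6b, a membrane glycoprotein gene, averaged 48.9 ± 17.7 CPM in KO-labelled cells and 15.4 ± 1.96 CPM in WT cells, and Prps2, a phosphoribosyl pyrophosphate synthetase, 299 ± 19.3 CPM in KO-labelled cells and 179 ± 11.8 CPM in WT cells (SD, n = 4 each).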
